A study of Mus musculus with 6 samples.

Results

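The genes of the Wnt pathway that act outside the cell, at its membrane and inside it were followed in embryoid bodies (EBs) before and during treatment with retinoic acid (RA). The set was defined by gene symbol, and it was chosen with earlier results of these data known. It comprised every gene of the Wnt, Frizzled (Fzd), secreted Frizzled-related (Sfrp), Dickkopf (Dkk) and R-spondin (Rspo) families, together with Lrp5, Lrp6, Lgr4, Lgr5, Axin1, Axin2, Lef1, Tcf7l1, Tcf7l2, Notum, Wif1 and Frzb. Of the 19938 genes that a probe set with 1 gene symbol represented, 54 met this rule: 19 Wnt ligands, 4 R-spondins, 10 Frizzled receptors, 4 co-receptors and R-spondin receptors, 11 secreted antagonists, 2 Axin scaffolds, 3 TCF/LEF factors and Fzd10os, a long non-coding RNA named after Fzd10. Tcf7, which the rule also names, was not analysed here. The starting cells were R1, an established line of mouse embryonic stem (ES) cells, and their EBs were 4 days old, grown without leukaemia inhibitory factor (Lif), when 2 μM RA was added. The groups were EBs before RA (day 0), EBs after 3 days in RA (day 3) and EBs after 4 days in RA (day 4). Each day was represented by 2 Affymetrix Mouse Gene 1.0 ST arrays, 6 in all. Untreated EBs of matching age were not analysed here, and an effect of RA cannot be told apart from one of further days in culture.

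Wnt proteins are lipid-modified secreted signals. They bind a Frizzled receptor together with the co-receptor Lrp5 or Lrp6, which halts the destruction of beta-catenin by the Axin scaffold and lets it enter the nucleus to act with TCF/LEF factors. Some Wnts, of which Wnt5a is the textbook case, act largely without beta-catenin through Frizzled and Ror receptors. R-spondins strengthen the signal through Lgr receptors, while Sfrp, Frzb, Wif1, Dkk and Notum proteins weaken it outside the cell. In the mouse embryo Wnt signalling is needed to form the primitive streak and mesoderm, and later it patterns many mesodermal organs and the neural tube.

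The values are log2 intensities from Robust Multichip Average (RMA), in which a difference of 1 is a 2-fold change. Array medians over all probe sets lay between 6.69 and 6.85, and the 2 arrays of a day correlated at 0.999 across genes, which are not independent replicates. The study's text describes a repeat of the EB and RA procedure as 2 biological replicates for its day 0 and day 4 RNA. Whether the arrays of a day stem from separate cultures is not stated in the labels. Where they do not, the p-values reflect only array-to-array spread, which may be technical. Among the 54 genes, the 2 arrays of a day differed by at most 0.30 at day 0 (Rspo1), 0.36 at day 3 (Rspo1) and 0.52 at day 4 (Frzb). All samples are labelled as ES cells. Pou5f1, a defining gene of pluripotent cells, was at 10.27 and 10.20 (day 0), 6.31 and 6.01 (day 3) and 6.16 and 6.13 (day 4), so the arrays in RA were far below the day 0 arrays for this marker.

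Changes within the pathway went in both directions and were larger than those of a typical gene. At day 4 versus day 0, 21 of the 54 genes were higher and 20 were lower with a limma adjusted p no greater than 0.05, and 13 did not pass. Over all genes tested 51.5% passed, 25.9% higher and 25.6% lower, against 75.9% of the 54. At least 2-fold changes that passed were found for 13 genes upward and 10 downward, or 42.6% of the 54, against 10.4% of all genes (5.82% upward and 4.61% downward). The median size of the log2 change, regardless of sign, was 0.82 for the 54 genes and 0.21 for all genes, while the signed medians were -0.01 and 0.00. At day 3 versus day 0, 20 were higher, 23 lower and 11 did not pass, with 51.9% of all genes passing, 23.8% higher and 28.1% lower. At this day 12 rises and 10 falls that passed were at least 2-fold (40.7% of the 54), against 9.23% of all genes, 5.14% upward and 4.09% downward. Both comparisons use the same day 0 arrays. The zero of these changes depends on the scaling. The median of the 19938 genes was 7.66 and 7.64 on the day 4 arrays and 7.52 and 7.49 on the day 0 arrays, and centring on it put the median change at -0.15, with 3781 of all genes called higher and 8521 lower at day 4, against 5154 and 5106 without it. The median of all probe sets ran the other way, at 6.69 and 6.73 (day 4) and 6.82 and 6.82 (day 0). Centring on that median, an alternative chosen after seeing the data, put the median change at 0.11, with 7132 higher and 3915 lower. Changes within these bounds have no settled direction. Of the 54 genes, 21 were called higher and 23 lower with the gene median, and 22 and 17 with the median of all probe sets. In bulk RNA, fewer cells of a type and less RNA per cell cannot be told apart in any of these values.

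Of the 19 ligands, 7 were lower at day 4 than at day 0 (36.8%, against 25.6% of all genes), with Wnt3 changing most. In either direction 57.9% of the ligands were called, near the 51.5% of all genes. Wnt3, without which the mouse embryo forms no primitive streak (probe set 10381738), was at 9.85 and 9.85 (day 0), 6.16 and 6.27 (day 3) and 6.51 and 6.50 (day 4). All arrays in RA lay far below both day 0 arrays, and the level at day 4 was 10.2-fold lower than at day 0, a log2 change of -3.35 (SE 0.06, adjusted p = 5.68e-08). Wnt8a, a ligand of the posterior epiblast and streak, was at 7.13 and 7.21 (day 0), 6.19 and 6.11 (day 3) and 6.12 and 6.21 (day 4). Its 4 arrays in RA overlapped each other and stayed below those of day 0, with a change of -1.004 (SE 0.06, adjusted p = 9.24e-06). Wnt3a, which maintains the mesoderm progenitors of the tail, changed much less, by -0.32 (SE 0.07). The interval of its change (-0.48 to -0.15) did not reach that of Wnt3 (-3.48 to -3.21). Wnt5a, which drives outgrowth of the body axis and limbs, was at 11.04 and 10.91 (day 0), 9.46 and 9.49 (day 3) and 9.29 and 9.22 (day 4). It fell by day 3 and was lower again at day 4, by then 3.3-fold below day 0 (-1.72, SE 0.06, adjusted p = 8.34e-07). Its paralogue Wnt5b was at 8.45 and 8.54 (day 0), 7.25 and 7.22 (day 3) and 7.59 and 7.60 (day 4). The lowest arrays were those of day 3, where the change was -1.26 (SE 0.06), and at day 4 it was -0.90 (SE 0.06). Smaller falls that passed were those of Wnt2 (-0.55) and Wnt6 (-0.46) at day 4.

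Another 4 ligands rose (21.1%, against 25.9% of all genes), and each was higher at day 4 than at day 3. Wnt2b, which acts with Wnt2 in the mesoderm around the foregut to specify the lung, rose most (probe set 10500938). It was at 6.89 and 6.78 (day 0), 8.88 and 9.02 (day 3) and 10.13 and 10.15 (day 4), and the 3 days did not overlap. By day 4 it was 9.85-fold higher than at day 0, a log2 change of 3.30 (SE 0.07, adjusted p = 8.79e-08). Wnt4, which is needed to form kidney tubules and the female gonad, was at 8.28 and 8.04 (day 0), 10.10 and 10.07 (day 3) and 10.85 and 10.64 (day 4). The change at day 4 was 2.59 (SE 0.10, adjusted p = 9.47e-07). The probe set of Wnt4 that was not used moved the same way, with 8.44 and 8.40 on the day 0 arrays, 9.43 and 9.45 on those of day 3, and 10.36 and 10.26 on those of day 4. Wnt11, which guides cell movements of gastrulation and branching of the ureteric bud, was at 7.49 and 7.56 (day 0), 8.66 and 8.77 (day 3) and 9.65 and 9.72 (day 4), a change of 2.16 (SE 0.06, adjusted p = 3.32e-07) at day 4. Wnt9a, a ligand of developing joints, was at 7.44 and 7.34 (day 0), 7.89 and 8.13 (day 3) and 8.33 and 8.52 (day 4) and had the smallest change of the 4 (1.04, SE 0.10, adjusted p = 7.88e-05).

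The other 8 ligands did not pass at day 4, with log2 changes between -0.06 and 0.12. They were Wnt1, Wnt7a, Wnt7b, Wnt8b, Wnt9b, Wnt10a, Wnt10b and Wnt16. Wnt1, a marker of the midbrain boundary and dorsal neural tube, was at 5.82 and 5.89 (day 0), 5.81 and 5.77 (day 3) and 5.94 and 6.01 (day 4). The interval of its change at day 4 was -0.02 to 0.25, which leaves room for only a small difference on this scale. Wnt1, Wnt7a, Wnt8b and Wnt16, with Rspo4, Dkk4 and Sfrp4, were the 7 of the 54 genes with a mean below 6 and a standard deviation (SD) below 0.3 over the 6 arrays, the limits by which the study's methods called a gene undetectable. RMA compresses changes at such levels.

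**Figure D1:**
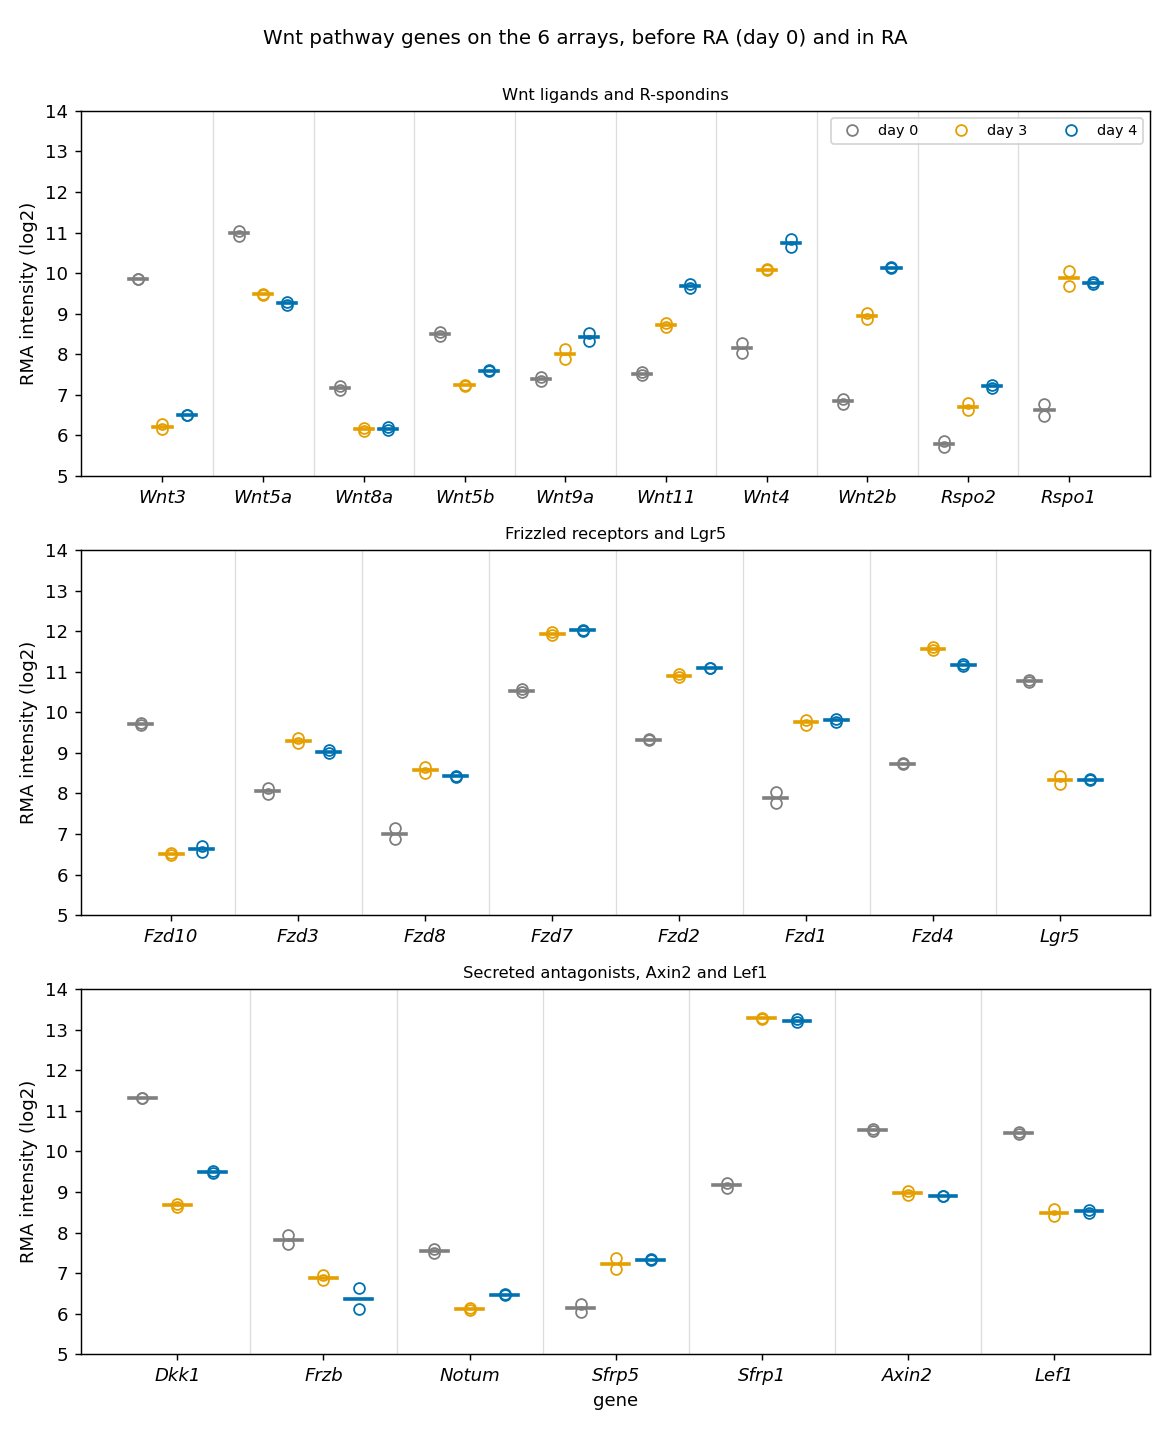
RMA intensity (log2) of the 25 genes that passed with a change of at least 2-fold in 1 of the 3 comparisons, drawn as an open circle per array and a short bar at the mean of each day, with day 0 (grey), day 3 (orange) and day 4 (blue). Wnt3 lay at 6.50 to 6.51 at day 4 and 9.85 at day 0, Wnt2b at 10.13 to 10.15 at day 4 and 6.78 to 6.89 at day 0, and Sfrp1 at 13.19 to 13.27 at day 4 and 9.11 to 9.22 at day 0.

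The sequence before the start site is shown for ligands that moved in opposite directions and for Dkk1, a textbook beta-catenin target. The windows are 200 bases upstream of the first RefSeq start listed, in GRCm38.p6 and 5′ to 3′ on the gene's strand. They lie at chr11:103773975-103774174, plus strand for Wnt3, chr19:30549497-30549696, minus strand for Dkk1, chr3:104961710-104961909, minus strand for Wnt2b and chr7:98834912-98835111, plus strand for Wnt11. Capitals mark CTTTGA on either strand, the core that TCF/LEF factors bind.
Wnt3: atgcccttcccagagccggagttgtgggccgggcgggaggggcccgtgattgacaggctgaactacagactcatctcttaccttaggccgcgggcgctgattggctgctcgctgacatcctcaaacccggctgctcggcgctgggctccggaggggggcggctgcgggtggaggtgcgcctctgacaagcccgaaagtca
Dkk1: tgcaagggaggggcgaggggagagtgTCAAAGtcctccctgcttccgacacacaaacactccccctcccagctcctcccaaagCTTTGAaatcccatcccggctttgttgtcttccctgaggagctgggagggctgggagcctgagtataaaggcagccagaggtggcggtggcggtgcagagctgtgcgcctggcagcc
Wnt2b: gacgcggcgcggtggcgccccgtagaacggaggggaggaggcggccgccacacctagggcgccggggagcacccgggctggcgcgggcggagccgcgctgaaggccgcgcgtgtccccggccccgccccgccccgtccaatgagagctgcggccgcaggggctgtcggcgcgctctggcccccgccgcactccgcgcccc
Wnt11: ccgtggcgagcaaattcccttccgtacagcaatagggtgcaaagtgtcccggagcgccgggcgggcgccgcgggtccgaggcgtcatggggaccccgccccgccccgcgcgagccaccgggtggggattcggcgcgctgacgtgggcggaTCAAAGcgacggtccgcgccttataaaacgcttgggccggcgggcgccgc
Dkk1 held 2 such matches, with first bases at -174 and -117 from the start, and Wnt11 held 1, at -50. Promoter windows were at hand for 34 of the 54 genes, 41 windows in all. Over the 250 bases upstream of the start, CTTTGA was found in 6 of these 41 windows (14.6%), against 13.8% of all 32851 windows of the table. By direction at day 4, it was in 4 of 15 windows of genes that were lower, 2 of 16 of genes that were higher and 0 of 10 of genes that were not called, with several windows for some genes. Besides Dkk1 and Wnt11, the windows with a match belonged to Frzb, Fzd1 and, at alternative starts, Lef1 and Wnt5b. The nuclear receptor half-site AGGTCA, searched on both strands, was found in 1 of the 41 windows, that of Wnt16, and in 14.0% of all windows. The letters of AGGTCA can overlap TCAAAG, the reverse of CTTTGA on the other strand, though no window of the 54 genes held both, and a match is not a binding site.

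R-spondins, the ligands of Lgr receptors, split in the same manner. Rspo1, which promotes development of the ovary (probe set 10508012), was at 6.78 and 6.47 (day 0), 9.69 and 10.05 (day 3) and 9.73 and 9.78 (day 4). The 4 arrays in RA overlapped and stood well above day 0, 8.75-fold higher at day 4, with a change of 3.13 (SE 0.14, adjusted p = 1.70e-06). Rspo2, a regulator of limb and lung growth, was at 5.71 and 5.87 (day 0), 6.79 and 6.62 (day 3) and 7.25 and 7.17 (day 4). It had not reached its day 4 level at day 3, and its changes were 0.92 (SE 0.08) at day 3 and 1.42 (SE 0.08) at day 4. Rspo3, which is needed for the vessels of the placenta, fell by 0.79 on the log2 scale at day 4 (adjusted p = 4.47e-05). Rspo4, a gene of nail formation, was near its day 0 level, with a change of 0.01 and an interval of -0.31 to 0.33. Lgr5, a receptor of R-spondins and a marker of intestinal stem cells, was at 10.75 and 10.79 (day 0), 8.22 and 8.44 (day 3) and 8.35 and 8.33 (day 4). The arrays in RA lay below those of day 0 without overlap, 5.39-fold lower at day 4 (-2.43, SE 0.08, adjusted p = 4.15e-07). Its relative Lgr4 moved the other way by a smaller amount (0.35, SE 0.06), and the intervals of the 2 changes (-2.61 to -2.25 for Lgr5 and 0.20 to 0.50 for Lgr4) lay on either side of 0.

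Most Frizzled receptors rose. Of the 10, Fzd1, Fzd2, Fzd3, Fzd4, Fzd6, Fzd7 and Fzd8 were higher at day 4 than at day 0, Fzd10 was lower, and Fzd5 and Fzd9 did not pass. That is 70% higher and 10% lower, against 25.9% and 25.6% of all genes. The median change of the 10 was 1.19, against 0.00 over all genes. Fzd4, which also serves as the receptor of norrin in retinal vessels (probe set 10554808), was at 8.72 and 8.75 (day 0), 11.53 and 11.61 (day 3) and 11.20 and 11.14 (day 4). Day 3 was its highest day, and at day 4 the change from day 0 was 2.43 (SE 0.06, adjusted p = 1.23e-07). Fzd1, Fzd2 and Fzd7 form a closely related subfamily. Fzd1 was at 8.03 and 7.75 (day 0), 9.82 and 9.70 (day 3) and 9.84 and 9.77 (day 4), a change of 1.91 (SE 0.10, adjusted p = 3.39e-06) at day 4. Fzd2 was at 9.32 and 9.33 (day 0), 10.86 and 10.93 (day 3) and 11.10 and 11.10 (day 4), a change of 1.77 (SE 0.05, adjusted p = 3.54e-07). Fzd7, a receptor known for its part in ES cells and gastrulation, was at 10.50 and 10.57 (day 0), 11.90 and 11.98 (day 3) and 12.03 and 12.00 (day 4), a change of 1.49 (SE 0.06, adjusted p = 1.06e-06). In all 3 genes the arrays in RA lay above both day 0 arrays. Fzd8, of the Fzd5 and Fzd8 pair, was at 7.15 and 6.87 (day 0), 8.51 and 8.65 (day 3) and 8.41 and 8.44 (day 4) and rose (1.42, SE 0.10, adjusted p = 1.52e-05), while Fzd5 had a change of -0.02 with an interval of -0.15 to 0.12. Fzd3, which guides axons and orients cells together with Fzd6, was at 8.13 and 7.99 (day 0), 9.36 and 9.23 (day 3) and 9.07 and 8.99 (day 4), with changes of 1.24 (SE 0.07) at day 3 and 0.97 (SE 0.07) at day 4. Fzd6 rose less (0.41, SE 0.06).

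Fzd10 was the receptor that fell. This receptor, which is found in the primitive streak and dorsal neural tube of the embryo, was at 9.74 and 9.68 (day 0), 6.47 and 6.52 (day 3) and 6.71 and 6.56 (day 4). All 4 arrays in RA lay below day 0, and the day 4 mean was 8.4-fold lower, a change of -3.07 (SE 0.07, adjusted p = 1.12e-07). Fzd10os, which shares the name of Fzd10 but codes for no protein, was at 6.62 and 6.39 (day 0), 5.78 and 5.82 (day 3) and 5.80 and 5.85 (day 4), a change of -0.68 (SE 0.08). Fzd9 was lower at day 3 (-0.37, adjusted p = 0.0438), a call that was lost without day 0 replicate 1 (adjusted p = 0.192), without day 0 replicate 2 (0.0646), without day 3 replicate 1 (0.227) and without either day 4 array (0.0508), and at day 4 it did not pass. The co-receptors changed little and in opposite directions. Lrp6 was higher at day 4 by 0.31 (SE 0.06) and Lrp5 was lower, with a change of -0.36 (SE 0.05).

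Secreted antagonists held the largest rise of the set. Sfrp1, which binds Wnt proteins outside the cell (probe set 10570957), was at 9.22 and 9.11 (day 0), 13.29 and 13.28 (day 3) and 13.27 and 13.19 (day 4). The arrays of both days in RA lay close together and stood 16.8-fold above day 0 by the day 4 mean, a log2 change of 4.07 (SE 0.06, adjusted p = 4.19e-08). No other of the 54 genes had an interval that reached that of Sfrp1 (3.92 to 4.21) at day 4. Sfrp5, a family member of the anterior visceral endoderm and early gut, was at 6.04 and 6.23 (day 0), 7.11 and 7.37 (day 3) and 7.31 and 7.34 (day 4) and rose (1.20, SE 0.10, adjusted p = 4.05e-05). Sfrp2 rose less, by 0.68 (SE 0.06). Wif1, which also binds Wnt proteins, was at 5.87 and 5.95 (day 0), 5.88 and 5.99 (day 3) and 6.90 and 6.75 (day 4). Its day 3 arrays overlapped those of day 0 (0.03, interval -0.14 to 0.21), and it was higher at day 4 by 0.92 (SE 0.07, adjusted p = 3.30e-05).

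Other antagonists fell. Dkk1, which blocks Lrp5 and Lrp6 and is needed to form the head (probe set 10467006), was at 11.32 and 11.31 (day 0), 8.70 and 8.64 (day 3) and 9.51 and 9.48 (day 4). The 3 days did not overlap, and day 3 was the lowest. Its change from day 0 was -2.65 (SE 0.05) at day 3 and -1.82 (SE 0.05, adjusted p = 3.24e-07) at day 4. Notum, an enzyme that removes the lipid from Wnt proteins, was at 7.59 and 7.49 (day 0), 6.08 and 6.14 (day 3) and 6.45 and 6.49 (day 4). It followed the same course, with changes of -1.43 (SE 0.06) at day 3 and -1.07 (SE 0.06) at day 4. Frzb, an antagonist first known from cartilage, was at 7.72 and 7.93 (day 0), 6.82 and 6.95 (day 3) and 6.63 and 6.11 (day 4). Its 2 arrays at day 4 differed more than those of any other gene of the set, but both lay below day 0 (-1.45, SE 0.16, adjusted p = 0.000181). Dkk3 (-0.19), Dkk4 (-0.16) and Sfrp4 (-0.20) also passed at day 4, with the highest adjusted p being 0.0457 (Dkk4). For Dkk3 the call was lost without day 0 replicate 1 (adjusted p = 0.163), without either day 3 array (0.0527) and without day 4 replicate 1 (0.109) or 2 (0.0893), and for Dkk4 without each of the 6 arrays (0.0533 to 0.176). For Sfrp4 it was lost without day 0 replicate 2 (0.126) and without day 4 replicate 1 (0.0749) or 2 (0.101). The calls of Dkk3, Dkk4 and Sfrp4 were also lost with centring on the median of all probe sets, chosen after seeing the data. Their changes were then -0.08, -0.06 and -0.09. Dkk2 did not pass (-0.04, interval -0.31 to 0.24).

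Inside the cell, Axin2 and Lef1 were lower while Tcf7l1 and Tcf7l2 were higher. Axin2, the scaffold whose gene is a standard reporter of beta-catenin activity, was at 10.55 and 10.50 (day 0), 8.93 and 9.03 (day 3) and 8.90 and 8.90 (day 4). The arrays in RA formed a tight group 3.08-fold below day 0 at day 4 (-1.62, SE 0.06, adjusted p = 7.50e-07). Its relative Axin1, not used as such a reporter, had a change of -0.14 that did not pass (adjusted p = 0.0537), but it passed with centring on the gene median (-0.29, adjusted p = 0.00217), with an intensity trend and robust moderation (0.0186) and over genes with a mean of 6 or more (0.0282). Lef1, the TCF/LEF factor that mostly activates targets, was at 10.48 and 10.44 (day 0), 8.40 and 8.59 (day 3) and 8.49 and 8.56 (day 4). The arrays of day 3 and day 4 overlapped, both below day 0, and the change at day 4 was -1.93 (SE 0.07, adjusted p = 9.47e-07). Tcf7l1, which mostly represses targets in ES cells, was higher by 0.40 (SE 0.05), and Tcf7l2 by 0.85 (SE 0.05). At day 4 the changes of Lef1 (-2.11 to -1.76), Tcf7l1 (0.27 to 0.53) and Tcf7l2 (0.73 to 0.97) had intervals that did not overlap.

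**Figure D2:**
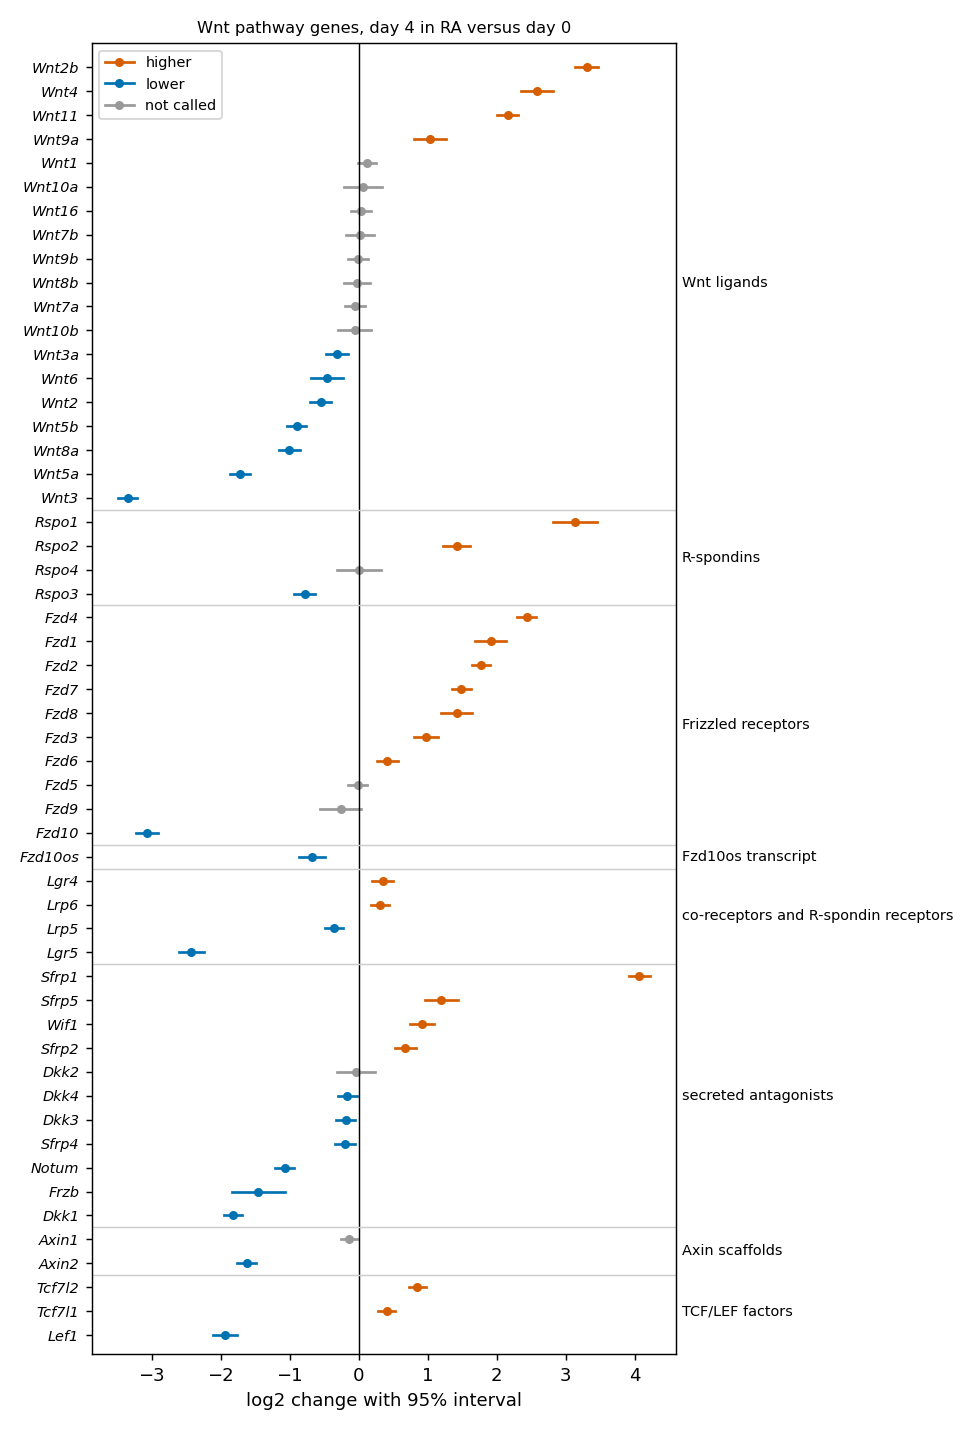
Log2 change at day 4 in RA versus day 0 for all 54 genes, grouped by role, with the 95% interval from the moderated fit and colour for genes higher (orange), lower (blue) or not called (grey) at an adjusted p of 0.05. Sfrp1 lay farthest to the right at 4.07, Wnt3 farthest to the left at -3.35, and 7 of the 10 Frizzled receptors lay above 0.

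The levels at day 3 and day 4 were compared to see which of these genes still moved on the last day. Of the 54 genes, 15 were higher and 5 lower at day 4 than at day 3 (limma, adjusted p of 0.05 or below), or 37% in all, against 28.1% of all genes tested, 15.8% higher and 12.2% lower. The ligands accounted for 11 of these 20 calls. Wnt2b had the largest estimate, a rise of 1.19 (SE 0.07, adjusted p = 0.000183), the 1 change of at least 2-fold (1.85% of the 54, against 0.767% of all genes, 0.376% upward and 0.391% downward). The next rises in size were those of Wnt11 (0.97, SE 0.06, adjusted p = 0.000255), Wif1 (0.89, SE 0.07, adjusted p = 0.000514), Dkk1 (0.83, SE 0.05, adjusted p = 0.000248), Wnt4 (0.66, SE 0.10, adjusted p = 0.00369) and Rspo2 (0.50, SE 0.08, adjusted p = 0.00520). The intervals of Wnt11 (0.81 to 1.12), Wif1 (0.71 to 1.06) and Dkk1 (0.70 to 0.95) overlapped, and those of Wnt11 and Wif1 also overlapped that of Wnt2b (1.03 to 1.35), so the order is not settled.

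The genes that rose on the last day were of more than one kind. Wnt2b, Wnt4, Wnt9a, Wnt11, Rspo2, Sfrp2 and Fzd2 went on above a day 3 level that was already above day 0. Wnt3, Wnt3a, Wnt5b, Dkk1 and Notum came back part of the way, since each remained below day 0 at day 4. Wnt7a and Wnt10b were below day 0 at day 3 (-0.38 and -0.43) and within 0.06 of it at day 4, and Wif1 rose only then. Of the 5 genes that were lower at day 4, Fzd4 changed by -0.40 (SE 0.06, adjusted p = 0.00292), Fzd3 by -0.27 (SE 0.07), Wnt2 by -0.23 (SE 0.06), Lrp6 by -0.23 (SE 0.06) and Wnt5a by -0.22 (SE 0.06). For Wnt2 and Wnt5a this continued a fall, while Fzd3, Fzd4 and Lrp6 kept a level above day 0. With centring on the gene median 12 genes were higher and 6 lower, and with centring on the median of all probe sets, which put the median change of all genes at 0.18, 26 were higher and 1, Fzd4, was lower. The count of 20 was 9 without day 3 replicate 1, 10 without day 4 replicate 2 and 13 without day 3 replicate 2. The calls of Wnt2b, Wnt4, Wnt5b, Wnt11, Rspo2, Fzd4, Dkk1, Notum and Wif1 held under all alternatives in which they were tested. Those of Wnt2, Wnt3, Wnt3a, Wnt5a, Wnt7a, Wnt9a, Wnt10b, Fzd2, Fzd3, Lrp6 and Sfrp2 were each lost under at least 1.

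**Figure D3:**
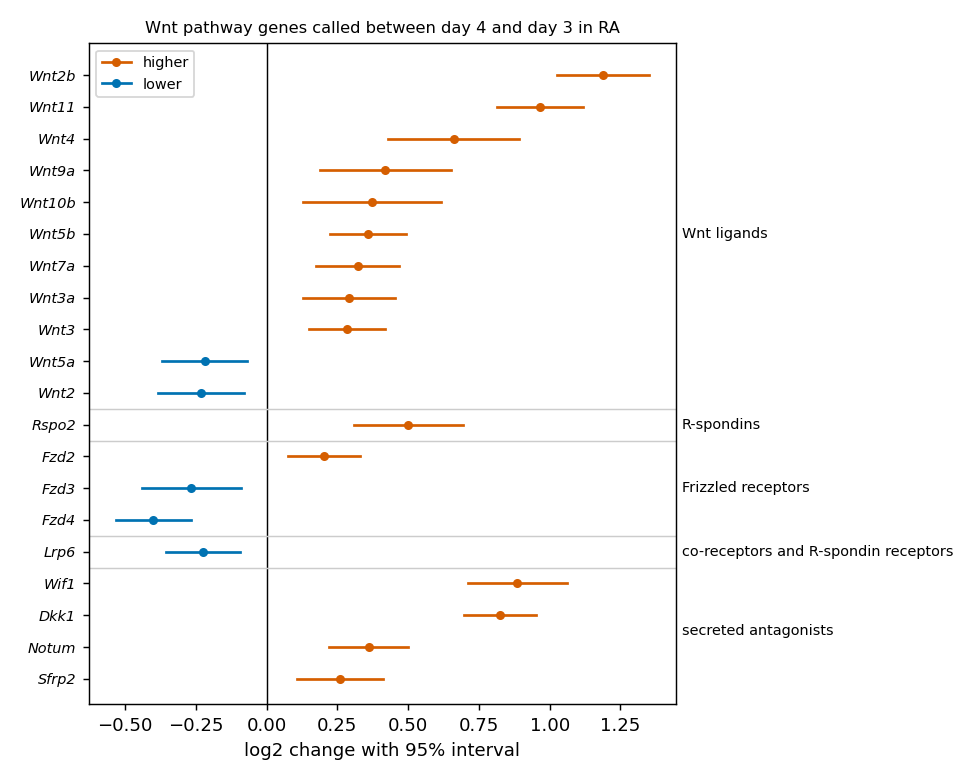
Log2 change at day 4 versus day 3 in RA, with the 95% interval, for the 20 genes called between these days, orange where higher and blue where lower at day 4. Wnt2b (1.19) and Wnt11 (0.97) lay farthest to the right and Fzd4 (-0.40) farthest to the left.

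The rest of the pathway was read from 8 lists by role, 76 measured genes, of which 33 were higher, 22 lower and 21 not called at day 4 versus day 0 (72.4% called, against 51.5% of all genes). A list of 10 measured target genes of beta-catenin, chosen with earlier results of these data known, held no rise. Of these, 9 were lower, 0 were higher and Cdx1 did not pass, against 25.6% of all genes lower. The median log2 change was -1.40, against 0.00 over all genes. At day 3 all 10 were lower, against 28.1% of all genes. Cdx2, a regulator of the posterior body, was at 11.41 and 11.26 (day 0), 6.41 and 6.55 (day 3) and 6.52 and 6.65 (day 4), and the days in RA lay far below day 0. Myc changed by -2.70 (SE 0.05, adjusted p = 7.00e-08) and the mesoderm factor gene Msgn1 by -2.52 (SE 0.10, adjusted p = 1.06e-06). These genes also respond to other signals, and several of them are known as streak or stem cell genes. Feedback targets that stood in other lists were mixed, and Nkd2, given below, was lower. Rnf43, an enzyme that removes Frizzled receptors from the membrane, rose by 0.85 (SE 0.07, adjusted p = 4.94e-05). Its relative Znrf3 (-0.13, adjusted p = 0.0898) and the Dishevelled inhibitor Nkd1 (-0.19, adjusted p = 0.0845) did not pass.

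Genes for beta-catenin and its nuclear partners mostly rose. Of 12, 8 were higher, 3 lower and 1 not called, with a median of 0.57. That is 91.7% called, against 51.5% of all genes, 25.9% higher and 25.6% lower. Ctnnb1, which encodes beta-catenin, was at 12.54 and 12.50 (day 0), 13.13 and 13.10 (day 3) and 13.03 and 13.02 (day 4), a change of 0.50 (SE 0.05, adjusted p = 0.000117). Pygo1 (1.58, SE 0.09), a partner of beta-catenin through Bcl9, Tle5 (1.45, SE 0.05), a short Groucho family member known to relieve repression by the long ones, and Tle1 (1.06, SE 0.09), a long member that represses with TCF factors, had the largest changes. Of 8 genes of the destruction complex, which marks beta-catenin for breakdown, or of a related inhibitor, 5 were higher and 2 lower (87.5% called). Btrc (0.58), Apc2 (0.53) and Ctnnbip1 (0.51) led. Of 8 Dishevelled genes and regulators, 4 were higher and 2 lower (75% called). Dact1, which binds Dishevelled, rose by 1.92 (SE 0.06), and Nkd2, a feedback inhibitor, changed by -1.07 (SE 0.11).

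Outside the cell, antagonists beyond the families above held rises and 1 fall that passed. Of 9, 4 were higher and 1 lower at day 4 (55.6% called), near the 51.5% of all genes. Trabd2b, which encodes a protease that cleaves Wnt proteins, was at 6.10 and 6.20 (day 0), 10.84 and 10.68 (day 3) and 10.50 and 10.67 (day 4), a change of 4.44 (SE 0.08, adjusted p = 7.08e-08). Shisa3, of a family that holds Wnt and FGF receptors back in the cell, was at 6.49 and 6.28 (day 0), 11.24 and 11.21 (day 3) and 10.55 and 10.55 (day 4), a change of 4.16 (SE 0.08, adjusted p = 6.69e-08). Both stood far above day 0 in all arrays in RA. Apcdd1, an inhibitor at the membrane, fell, with a change of -1.75 (SE 0.06, adjusted p = 5.73e-07). Of 15 other receptors and membrane regulators, 6 were higher and 1 lower (46.7% called), which is below the share of all genes. Ror1, a receptor of Wnt5a, was at 7.33 and 7.06 (day 0), 10.17 and 10.13 (day 3) and 10.03 and 10.00 (day 4) and rose (2.82, SE 0.09, adjusted p = 4.02e-07), and Reck, which helps Wnt7 ligands signal in vessels, rose by 1.58 (SE 0.06). Of the 2 genes for Wnt production, Porcn, whose product adds the lipid, rose by 0.68 (SE 0.07), and Wls, the transporter, did not pass (0.09). Of 12 genes of planar cell polarity, the branch that orients cells in a sheet, 5 were higher and 4 lower (75% called). Prickle2 (1.68), Daam2 (1.21) and Daam1 (-1.01) changed most.

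**Figure D4:**
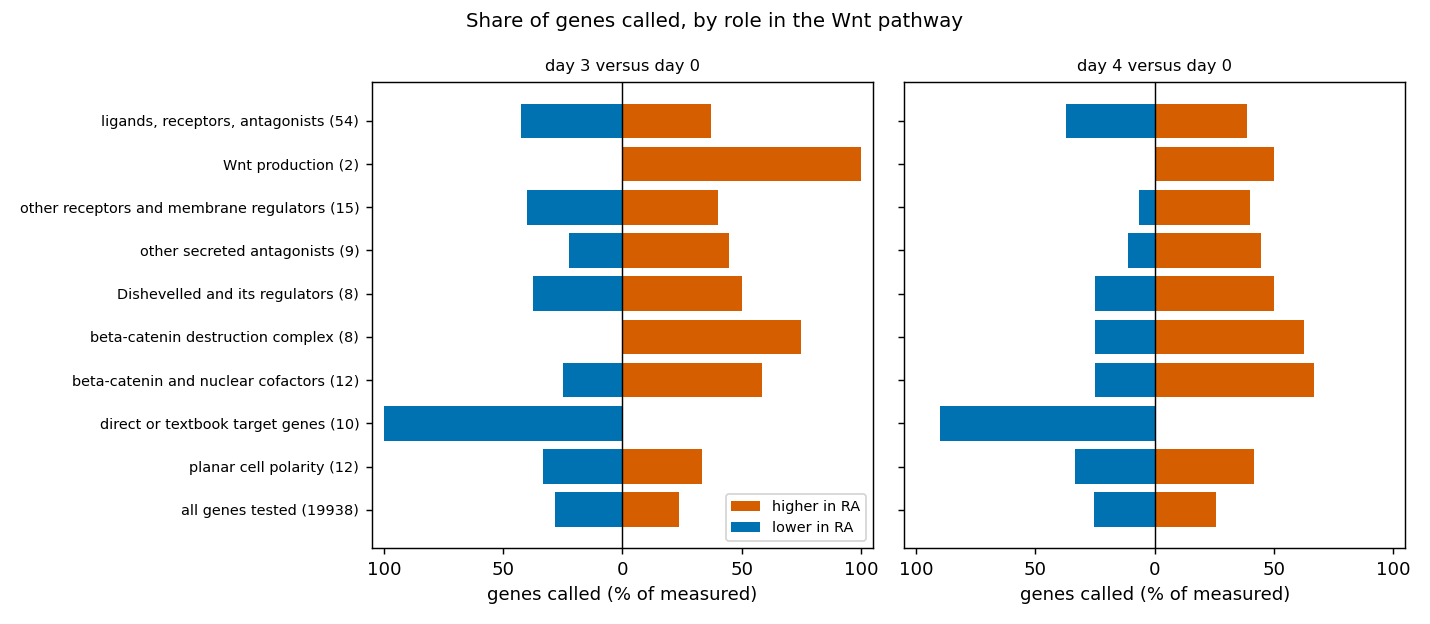
Share of measured genes called higher (orange, right) or lower (blue, left) in RA, as a percentage, in a left panel for day 3 and a right panel for day 4, each set against day 0, for the 54 genes, the 8 other lists (gene numbers in brackets) and all genes tested. The list of target genes, chosen with earlier results of these data known, is the one that lay wholly on the lower side. It had 10 of 10 lower at day 3 and 9 of 10 at day 4, and some feedback targets stood in other lists.

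Summed levels of some cell type markers differed between the days along with these genes, most for pluripotent cells, the primitive streak, mesenchyme and red blood cells. At day 4, 51.5% of all genes were called in either direction, 25.9% higher and 25.6% lower. Of the neural progenitor genes 33.3% were called, and of both the cardiac and the visceral endoderm genes 60%. So nothing is read from the counts of these 3 lists. The summed level of 6 pluripotency markers (log2 of the summed intensities) was 12.7 to 12.8 at day 0, 9.76 to 9.86 at day 3 and 9.52 to 9.75 at day 4, and 6 of 6 were lower at day 4. Among them Zfp42 met the limits for an undetectable gene and changed by only -0.43. For 6 genes of the primitive streak and nascent mesoderm the summed level was 13.4 and 13.4, 9.71 to 9.97 and 9.38 to 9.54 on the 3 days, with 5 of 6 lower at day 4. The other, Lhx1, was not called at day 4 and was higher at day 3 (0.79, limma adjusted p = 0.00299). For 7 mesenchyme genes the levels were 10.3 and 10.3, 12.1 and 12.1, and 12.3 to 12.4, with 6 of 7 higher and Lum not called. For 4 red blood cell genes they were 9.82 to 10.1, 14.3 to 14.5 and 12.4 to 12.7, with 3 of 4 higher at day 4 and Alas2 not called. Neural progenitor genes stood at 10.6 and 10.6, 10.7 and 10.7, and 10.7 and 10.7, with 2 of 6 higher at day 4. For 7 neuronal genes the levels were 11.1 to 11.2, 10.6 and 10.7, and 11.1 to 11.3. These sums are weighted to Stmn2, the brightest of the 7 on every array, with day means of 10.63, 8.78 and 10.21. At day 4, 85.7% of the 7 were called, 3 higher and 3 lower. Dcx (1.99), Rbfox3 (1.63) and Map2 (0.37) rose, while Stmn2 (-0.41), Tubb3 (-0.38) and Elavl3 (-0.24) fell. The 5 cardiac muscle genes were at 10.6 and 10.6, 10.1 and 10.1, and 10.2 and 10.3, with 1 higher and 2 lower, and the 5 visceral endoderm genes at 9.17 to 9.23, 9.63 to 10.01, and 9.72 to 9.79, with 3 higher. RMA gives no value of 0, so no marker is at 0. The part of these cell types in the changes of the Wnt genes was not tested.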

How the data were processed

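RNA of EBs of R1 mouse ES cells was hybridised to 1-colour Mouse Gene 1.0 ST arrays (Affymetrix), with 1 sample on each. The authors deposited log2 intensities, made with Robust Multichip Average (RMA) in Partek per the study's methods. RMA corrects the background, equalises the distributions of the arrays and summarises each probe set, so total RNA per cell cannot be seen and changes of dim genes are understated. Arrays have no read depth; their number limits precision. The table held 35557 probe sets, of which 21789 had 1 symbol in the platform annotation, and for the 999 genes with several the brightest was used.

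All 19938 genes were fitted together in limma 3.58.1 (R 4.3.3), with 6 arrays and a mean for each day (3 residual and 4.07 prior degrees of freedom). Tests were two-sided with Benjamini-Hochberg adjustment across the 19938 genes, calls were made at an adjusted p no greater than 0.05, and intervals are 95%. The fit was tested on simulated data. Genes that passed with at least a 2-fold change in any comparison are given with every array; the array values of other genes were chosen for display after they were seen. The genes, lists and motifs were chosen with earlier results of these data known. Dkk1, Wnt2b, Wnt3 and Wnt11 were chosen for the printed sequences after their values were seen. Promoter windows are from RefSeq (GRCm38.p6), while the array files name no build. Alternatives were centring on the median of the genes or, chosen after seeing the data, of all probe sets, cyclic loess, an intensity trend with robust moderation, a mean of 6 or more, the mean of probe sets, only the 2 days compared, the replicate number as a block, and leaving out each array. The correlation of same-numbered arrays' deviations is given with the effect of the block.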

Additional observations from a re-analysis of the deposited data

How the results depend on the processing

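The counts of the 54 genes called kept within 1.5 times under the alternatives for day 4 versus day 0 and day 3 versus day 0. Without 1 array, the genes called at day 4 versus day 0 numbered 38 to 39, and at day 3 versus day 0 40 to 43. For day 4 versus day 3 they numbered 9 to 19 without 1 array, against 20 with all, with 8 to 15 higher and 1 to 4 lower, and over all genes 2728 to 5276 were called, against 5593. The count of 9 came without day 3 replicate 1, and the cause was not tested. No log2 change of the 54 genes that was called reversed under any alternative. For the 25 genes given with every array, no call against day 0 changed. Of the calls at day 4 versus day 0, those of Dkk3, Dkk4 and Sfrp4 were lost under at least 1 alternative, and at day 3 versus day 0 those of Dkk3, Dkk4, Fzd9, Sfrp4 and Wnt10b. Frzb, which did not pass between day 4 and day 3 (-0.51, adjusted p = 0.0536), passed with centring on the gene median (0.0427), cyclic loess (0.0427), an intensity trend with robust moderation (0.0151), a mean of 6 or more (0.0424) and without day 4 replicate 1 (0.0108). Centring on the gene median gave 12 genes higher and 6 lower between these days, against 15 and 5, and turned the split of all called genes to 2268 higher and 3081 lower, against 3156 and 2437. At day 3 versus day 0 the split was 3889 higher and 8495 lower, against 4749 and 5596. Centring on the median of all probe sets, chosen after seeing the data, called 10210 genes between day 4 and day 3 (8829 higher and 1381 lower), and of the 54 genes 26 higher and 1 lower. Other genes that passed only under some alternatives were Axin1, Fzd9, Wnt1 and Wnt7a at day 4 versus day 0, Axin1, Wnt1, Wnt7b, Wnt10a and Wnt16 at day 3 versus day 0, and Wnt1 and Wnt10a at day 4 versus day 3, where centring on the median of all probe sets added Dkk3, Dkk4, Fzd7, Fzd10, Lrp5, Wnt6, Wnt7b, Wnt8b and Wnt16.

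The replicate numbers of the labels do not state a shared culture or day, and same-numbered arrays deviated together only weakly (correlations 0.03, 0.06 and 0.08). With the replicate number as a block, 40 of the 54 genes were called at day 4 versus day 0, 44 at day 3 versus day 0 and 20 at day 4 versus day 3, and over all genes 10251, 10359 and 5469.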
